A study of Mus musculus with 6 samples.

Results

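The genes described here were 10 chemokine ligands that myeloid cells or mast cells can make, *Ccl1*, *Ccl2*, *Ccl3*, *Ccl4*, *Ccl5*, *Ccl6*, *Ccl9*, *Ccl17*, *Cxcl2* and *Cxcl10*. They were taken by gene symbol from the 54532 genes of the deposited count table, and all 10 were found and had enough counts to be tested. RNA was read in mouse acute myeloid leukemia (AML) cells, in 3 libraries of *WT Phf6,RE9a* cells, named WT replicates 1, 2 and 3 below, and 3 of *VC Phf6,RE9a* cells, named VC replicates 11, 12 and 13. Every library came from lineage-negative hematopoietic cells of male mice with a floxed *Phf6* allele (*Phf6* fl/y). For the RE9a model the paper took them from fetal liver. A retrovirus had given these cells RE9a, the leukemia fusion RUNX1-ETO9a, together with GFP. They were passed serially through male recipient mice, and GFP+ cells were sorted from bone marrow. The VC cells carried Vav1-Cre as well, which removes the floxed *Phf6* segment across blood cells rather than in leukemia cells alone. PHF6 is a zinc finger protein of chromatin that is mutated in some leukemias. The labels give no age and leave unsaid whether separate leukemias were sequenced, so p-values measure only the spread between these libraries.

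Chemokines are small secreted proteins that guide leukocytes along a concentration gradient by binding receptors coupled to G proteins. The CC and CXC classes are named after the spacing of the leading cysteines. Myeloid cells, mast cells and basophils release many of them after activation, when transcription factors such as NF-κB and AP-1 switch their genes on and unstable mRNAs accumulate for a short time. In bone marrow they hold or release progenitors, monocytes and neutrophils.

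Library totals ran from 15675358 to 16817994, and the upper limit for a gene with a count of 0, set at 3 counts, lay between 0.175 and 0.204 CPM (counts relative to library size, scaled by TMM). These limits and all intervals below cover counting error only. *Phf6* itself had 1044, 827 and 1142 counts in WT cells and 388, 314 and 331 in VC cells. It was lower in VC cells by edgeR's quasi-likelihood test (log2 fold change -1.66 ± 0.13 SE, adjusted p = 9.32e-05). Markers of myeloid leukemia cells (*Ptprc*, *Kit*, *Itgam*, *Spi1*, *Mpo*) were read in all 6 libraries. *Kit* had a log2 fold change of -3.15 and *Itgam*, the gene of Mac-1, of 2.31 (adjusted p = 0.0272).

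Of the 10 ligands, 5 were lower in VC cells, 1 was higher and 4 did not pass the threshold (edgeR, adjusted p under 0.05 over all genes tested). *Ccl4*, *Ccl2*, *Ccl1*, *Ccl17* and *Ccl3* fell, while *Ccl6* rose. *Ccl1* passed the count filter through the WT libraries alone, so its call and its lack of overlap add little to its counts. Many genes differed between these groups. Over 14169 genes tested 44.2% passed, 22.7% lower and 21.5% higher. The ligands, and the gene lists below, were chosen with earlier results of these data known. The 6 of 10 ligands beside these shares are thus a description and not a test. The median log2 fold change was -0.75 over the 10 ligands and 0.013 over all genes tested. For the 5 lowered ligands every VC library lay under every WT library, and for the other 5 the groups overlapped. Groups of 3 libraries failed to overlap for 57.3% of all genes tested, 28.4% with VC below and 28.9% with VC above. RNA of a sorted population does not separate fewer cells of a type from less RNA per cell, so these cannot be told apart here.

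**Figure D1:**
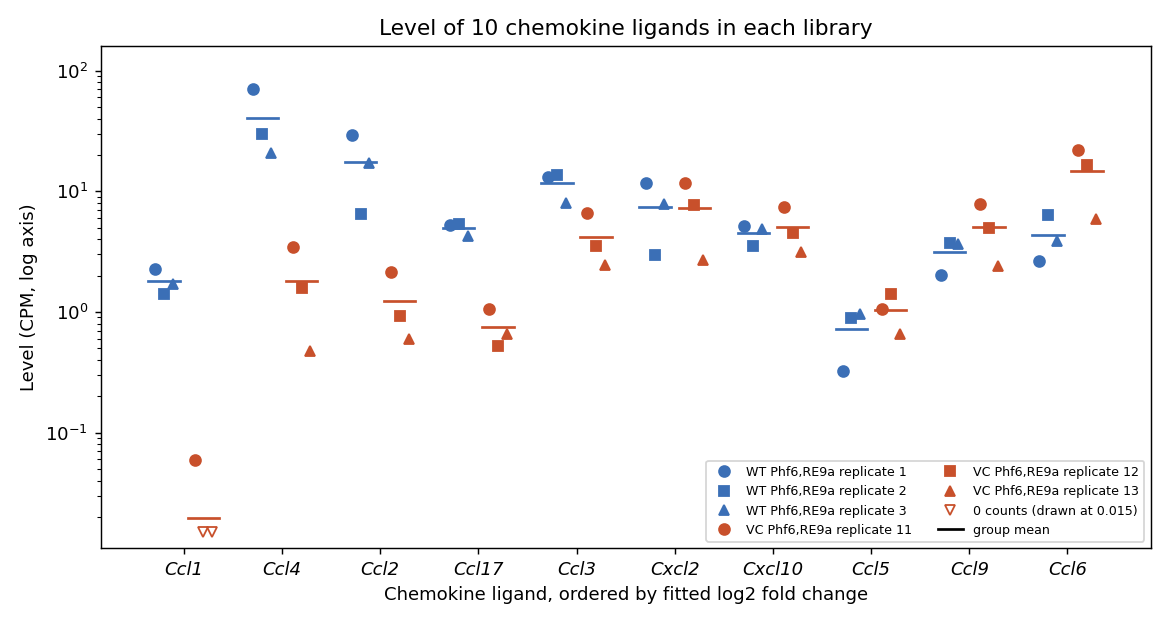
Level of each of the 10 chemokine ligands in CPM on a log axis, with a symbol for each of the 3 *WT Phf6,RE9a* (blue) and 3 *VC Phf6,RE9a* (orange) libraries and a bar at the group mean. Open triangles stand for libraries with 0 counts. The orange symbols of *Ccl1*, *Ccl4*, *Ccl2*, *Ccl17* and *Ccl3* lie under all blue symbols of the gene, those of *Ccl6* lie mostly above, and the other 4 genes overlap.

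CCL3, CCL4 and CCL5, the macrophage inflammatory proteins 1α and 1β and RANTES, attract monocytes and T cells. *Ccl4* was the most strongly expressed ligand of WT cells. Its level was 70.6, 29.8 and 20.9 CPM in WT cells and 3.42, 1.57 and 0.475 CPM in VC cells. All VC libraries were far below, and WT replicate 1 stood above its own group. The mean went from 40.5 ± 26.5 to 1.82 ± 1.49 CPM (SD, n = 3), which was 22.1-fold lower (log2 fold change -4.46 ± 0.68 SE, adjusted p = 0.00165 from edgeR). The log2 fold change was -3.80 without WT replicate 1 and -5.28 without VC replicate 11, and the call held in all 6 fits that each left out a single library. *Ccl4* lies on chromosome 11 of GRCm38 from 83662584 to 83664683, forward strand.

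*Ccl3* had 201, 201 and 133 counts in WT cells and 111, 60 and 41 in VC cells. The groups did not overlap, although VC replicate 11 came close to WT replicate 3. The level fell from 11.6 ± 3.07 to 4.16 ± 2.14 CPM (SD, n = 3), with a log2 fold change of -1.47 ± 0.39 SE (adjusted p = 0.0172 from edgeR). This call was lost without VC replicate 12 (log2 fold change -1.36, adjusted p = 0.0645). Between *Ccl3* and *Ccl4*, which are neighbours and encode related proteins, the fold differed from 2.78 to 22.1. *Ccl5*, an attractant of T cells, monocytes and eosinophils, was barely read, at 5, 13 and 16 counts in WT cells and 18, 24 and 11 in VC cells. Its log2 fold change was 0.51 (standard error 0.49, adjusted p = 0.430), with groups that overlapped.

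CCL2, monocyte chemoattractant protein 1, draws monocytes through CCR2. *Ccl2* (chromosome 11, 82035571 to 82037453, forward strand) had levels of 29.0, 6.51 and 17.3 CPM in WT cells and 2.13, 0.932 and 0.594 CPM in VC cells. The lowest WT library was replicate 2, still above every VC library. The mean fell from 17.6 ± 11.3 to 1.22 ± 0.804 CPM (SD, n = 3), 14.4-fold, with a log2 fold change of -3.85 ± 0.65 SE (adjusted p = 0.00258 from edgeR). Without single libraries the log2 fold change ran from -4.51 to -3.29, and each of the 6 fits made the call. *Gm17268*, which overlaps *Ccl2* on the opposite strand, had 0 counts in all libraries.

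*Ccl1* encodes the ligand of CCR8, a receptor of type 2 helper T cells and regulatory T cells, and activated mast cells are among its sources. It had 35, 21 and 28 counts in WT cells and 1, 0 and 0 in VC cells. The transcript was thus read in every WT library and from a single VC read in all. Summed over libraries and scaled for depth, WT cells had 91.7 times the counts of VC cells (95% exact interval 16.0 to 3660), and edgeR gave an adjusted p of 0.000455. With so few reads it passed the count filter through the WT libraries alone, so the edgeR call adds little to these counts. *Ccl17* encodes TARC, which draws CCR4-positive T cells. Its counts were 81, 79 and 70 in WT cells and 18, 9 and 11 in VC cells. WT replicates lay close together here, with the highest CPM 1.27 times the lowest. The mean fell 6.57-fold, from 4.95 ± 0.621 to 0.747 ± 0.281 CPM (SD, n = 3, edgeR adjusted p = 0.000641), and the log2 fold change stayed between -3.05 and -2.51 when single libraries were left out. *Ccl17* lies on chromosome 8 (94810453 to 94812036, forward strand), away from the other CC ligands described here.

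CCL6 and CCL9 are CC chemokines of rodents that are made by myeloid cells and bind CCR1. *Ccl6* had levels of 2.66, 6.38 and 3.87 CPM in WT cells and 21.8, 16.4 and 5.94 CPM in VC cells. VC replicates 11 and 12 stood above all WT libraries, whereas replicate 13 lay below WT replicate 2. The mean rose from 4.30 ± 1.89 to 14.7 ± 8.06 CPM (SD, n = 3), 3.42-fold (log2 fold change 1.77 ± 0.50 SE, adjusted p = 0.0232 from edgeR). The call was made in only 2 of the 6 fits that left out a library, and without VC replicate 11 the adjusted p was 0.0807 at a log2 fold change of 1.39. *E230016K23Rik* overlaps *Ccl6* on the opposite strand with 0 shared exon bases, and had 0, 0 and 2 counts in WT cells and 38, 59 and 41 in VC cells, through which alone it passed the count filter. Exon reads of the 2 genes thus fall on different bases. Strand-specific counting is not stated for these data, so intron reads, if counted, could not be told apart where the genes overlap. *Ccl9* ran from 31 to 60 counts in WT cells and from 40 to 134 in VC cells, with a log2 fold change of 0.70 ± 0.46 SE (adjusted p = 0.252), and its groups overlapped.

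Both CXC ligands, on chromosome 5 from 90903871 to 90905938 (*Cxcl2*, forward strand) and from 92346638 to 92348889 (*Cxcl10*, reverse strand), overlapped between the groups. CXCL2 is a neutrophil attractant that binds CXCR2. *Cxcl2* had 178, 44 and 130 counts in WT cells and 196, 132 and 45 in VC cells, about as wide a range within each group. The mean level was 7.47 ± 4.30 CPM in WT cells and 7.31 ± 4.46 CPM in VC cells (SD, n = 3), with a log2 fold change of -0.03 ± 0.59 SE (adjusted p = 0.972). Its sign depended on single libraries, from -0.52 to 0.42. CXCL10 is induced by interferons and attracts CXCR3-positive T and NK cells. *Cxcl10* had 80, 52 and 81 counts in WT cells and 126, 78 and 53 in VC cells, a log2 fold change of 0.15 ± 0.35 SE (adjusted p = 0.756) that ran from -0.23 to 0.40 without single libraries. Of its 2252 exon bases 133 are shared with *Art3* on the other strand, which had at most 3 counts in any library.

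Promoter sequence was read for the 7 of the 10 ligands that the RefSeq promoter table holds, from 250 bases before to 50 bases after the RefSeq start (GRCm38.p6). *Ccl2*, *Ccl4* and *Ccl5* were not matched. Both strands were searched for the NF-κB consensus, for TGANTCA (AP-1), for the interferon-stimulated response element (ISRE, by its consensus) and for TTGCNNAA (C/EBP). The NF-κB consensus was found in *Cxcl2*, *Cxcl10* and *Ccl9*, the AP-1 letters in *Cxcl10* and *Ccl9* and the ISRE in *Cxcl10*. The C/EBP letters were found in 0 of the 7. Among 32851 promoters of the table, 4.51% held the NF-κB consensus, 7.81% AP-1, 3.44% the ISRE and 10.8% C/EBP. The 225 bases before the start are printed for the 3 ligands with a match, none of which passed the test above, and for the lowered *Ccl3* and *Ccl17* beside them, which had none. Capitals mark the matches. They are descriptions of letters, and no match says only that these letters are absent from the window.
*Cxcl2*, chr5:90903674-90903898, forward strand: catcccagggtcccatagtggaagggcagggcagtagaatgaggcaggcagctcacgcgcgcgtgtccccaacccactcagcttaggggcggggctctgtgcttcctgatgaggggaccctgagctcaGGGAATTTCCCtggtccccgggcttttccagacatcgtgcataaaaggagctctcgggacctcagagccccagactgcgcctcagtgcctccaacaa
*Cxcl10*, chr5:92348890-92349114, reverse strand: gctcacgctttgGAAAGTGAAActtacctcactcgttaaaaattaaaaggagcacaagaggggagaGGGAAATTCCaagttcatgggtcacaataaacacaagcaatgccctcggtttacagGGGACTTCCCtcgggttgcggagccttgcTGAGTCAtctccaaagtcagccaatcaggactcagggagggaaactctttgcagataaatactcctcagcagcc
*Ccl9*, chr11:83578637-83578861, reverse strand: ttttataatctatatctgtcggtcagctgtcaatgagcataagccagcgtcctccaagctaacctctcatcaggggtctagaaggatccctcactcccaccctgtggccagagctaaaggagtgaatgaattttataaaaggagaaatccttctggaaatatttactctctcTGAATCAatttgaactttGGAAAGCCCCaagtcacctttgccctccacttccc
*Ccl3*, chr11:83649379-83649603, reverse strand: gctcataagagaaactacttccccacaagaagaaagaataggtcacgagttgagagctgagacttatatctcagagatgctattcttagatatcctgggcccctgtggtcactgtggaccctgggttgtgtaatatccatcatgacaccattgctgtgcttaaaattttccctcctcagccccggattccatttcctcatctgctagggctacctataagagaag
*Ccl17*, chr8:94810228-94810452, forward strand: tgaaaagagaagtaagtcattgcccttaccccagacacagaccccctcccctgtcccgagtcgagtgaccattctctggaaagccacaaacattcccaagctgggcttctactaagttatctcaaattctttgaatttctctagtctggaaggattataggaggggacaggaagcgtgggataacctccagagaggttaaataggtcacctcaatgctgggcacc
In *Cxcl2* the capitals are a single run starting at position -97 from the start, which matched NF-κB on both strands. In *Cxcl10* the ISRE starts at -213, the NF-κB matches at -159 and -103 and the AP-1 match at -74. In *Ccl9* the AP-1 match starts at -53 and the NF-κB match, on the other strand, at -35.

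The make-up of the chemokine message was compared per length, in FPKM (deposited values, counts divided by gene length and a library size scaled by size factors), over all 38 chemokine ligands looked up. Their summed level was 208, 98.0 and 90.1 FPKM in WT cells and 49.2, 33.5 and 18.5 FPKM in VC cells. All VC libraries were lower, and the 10 ligands made up between 70.0% and 89.4% of the sum. *Ccl4* held 44.0% ± 8.46 of it in WT cells and 7.10% ± 3.29 in VC cells (SD, n = 3). *Ccl6* went the other way, from 2.23% ± 1.45 to 23.0% ± 4.90. Neither share overlapped between the groups. *Cxcl2* went in share from 2.78% ± 1.36 to 9.71% ± 2.45 and *Cxcl10* from 1.69% ± 0.647 to 6.68% ± 0.730, while the levels of both genes overlapped. Shares sum to a whole, so each moves with the others. The share of *Ccl3* changed direction with the unit, from 12.6% to 15.9% of FPKM but from 10.2% to 7.03% of CPM.

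**Figure D2:**
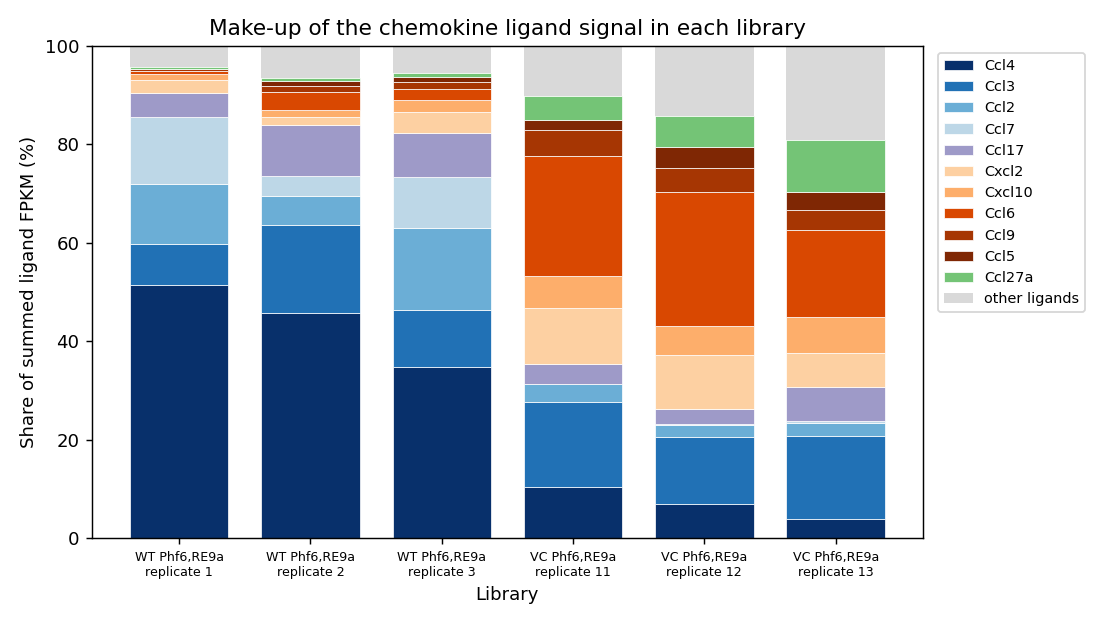
Share of the summed FPKM of 38 chemokine ligands, in percent, stacked for each of the 6 libraries. *Ccl4* (darkest blue) holds between 34.8% and 51.5% in *WT Phf6,RE9a* libraries and between 3.83% and 10.4% in *VC Phf6,RE9a* libraries, where *Ccl6* (orange) takes between 17.6% and 27.1%.

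In WT cells the order of mean FPKM was *Ccl4* (61.1), *Ccl2* (15.4), *Ccl3* (15.0), *Ccl17* (9.58), *Cxcl2* (3.59), *Ccl6* (2.38), *Cxcl10* (2.0), *Ccl9* (1.02), *Ccl1* (0.754) and *Ccl5* (0.749). The ranges of the 3 libraries were apart for *Ccl4* and *Ccl2*, for *Ccl3* and *Ccl17*, for *Ccl17* and *Cxcl2* and for *Cxcl10* and *Ccl9*. Those of the other neighbours overlapped. The order in VC cells was *Ccl6* (8.11), *Ccl3* (5.37), *Cxcl2* (3.49), *Ccl4* (2.73), *Cxcl10* (2.21), *Ccl9* (1.65), *Ccl17* (1.43), *Ccl5* (1.07), *Ccl2* (1.06) and *Ccl1* (0.0082). There only *Ccl2* lay clear of the gene after it, *Ccl1*, and all other neighbours overlapped.

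The libraries of a group differed in a similar way for many of the ligands. VC replicate 11 had the highest level of its group for 9 of the 10 and replicate 13 the lowest for 8, with *Ccl1* at 0 in replicates 12 and 13 alike. WT replicate 1 was highest for 5. The summed level of neutrophil markers was 201, 165 and 508 CPM in WT cells and 3880, 2490 and 1020 CPM in VC replicates 11, 12 and 13, and 11 of 11 were higher. Within the VC group it thus was highest in replicate 11 and lowest in replicate 13, as for most of the ligands, whereas WT replicate 3, the highest of its group for these markers, was highest for 1 of the 10 ligands. This VC order was not particular to neutrophil markers. Summed markers of monocytes and macrophages (232, 163 and 121 CPM) and of T and NK cells (15.5, 14.4 and 10.1 CPM) had it too. Those of dendritic, B, eosinophil, megakaryocyte, erythroid, leukemia and mast cell lists did not. Mast cell and basophil markers summed to between 22800 and 36300 CPM in WT cells and to between 7110 and 7820 CPM in VC cells. Of these 13 markers 12 were lower, where 22.7% of all genes tested were lower and 21.5% higher. *Ms4a2*, the β chain of the IgE receptor, was the marker that did not pass (log2 fold change -0.13, adjusted p = 0.519).

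Monocyte and macrophage markers ran from 60.2 to 102 CPM in WT cells and from 121 to 232 CPM in VC cells. Of 12 tested 3 were higher, near the share of all genes tested (21.5% higher, 22.7% lower). The counts below stand beside the same shares. Dendritic cell markers went from at most 5.63 CPM to at least 41.2 CPM (2 of 4 tested higher), and T and NK cell markers from at most 4.18 CPM to at least 10.1 CPM (2 of 2 tested higher). B cell markers went from at most 7.87 CPM to at least 25.3 CPM (5 of 5 tested higher) and eosinophil markers from at most 74.2 CPM to at least 128 CPM (5 of 6 higher). Erythroid markers ran from 1400 to 2130 CPM in WT cells and from 4500 to 5160 CPM in VC cells, with 6 of 6 higher. Megakaryocyte and platelet markers ran from 247 to 362 CPM in WT cells and from 37.1 to 43.8 CPM in VC cells (2 lower and 1 higher of 4 tested). In no list was a marker at 0 in all 6 libraries. The part of these cell types in the changes of the 10 ligands was not tested.

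**Figure D3:**
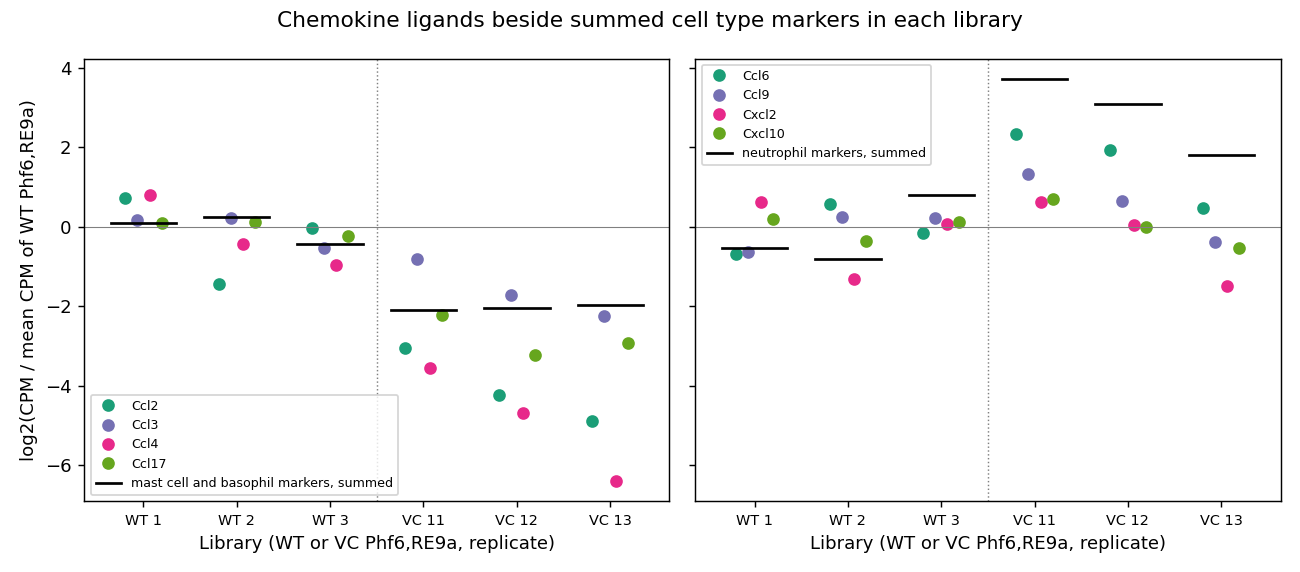
Level of 8 chemokine ligands (points) and of summed cell type markers (bars) in each library, as log2 of the CPM over the mean CPM of *WT Phf6,RE9a* libraries. *Ccl2*, *Ccl3*, *Ccl4* and *Ccl17* stand with mast cell and basophil markers at the left, *Ccl6*, *Ccl9*, *Cxcl2* and *Cxcl10* with neutrophil markers at the right. Within *VC Phf6,RE9a* libraries, replicate 11 is highest and replicate 13 lowest for 7 of these 8 ligands, on both sides, and for the neutrophil markers, but not for the mast cell and basophil markers. Summed markers of monocytes and macrophages and of T and NK cells, not drawn, have the same order as the neutrophil markers.

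Most of the CC ligands lie in 2 groups on chromosome 11, 1220 kb apart. In the group from *Ccl2* to *Ccl1* (82035571 to 82305690, 270 kb) 3 genes were tested, *Ccl2* and, through their WT counts alone, *Ccl7* and *Ccl1*. All 3 were lower in VC cells. The group from *Ccl5* to *Ccl4* (83525778 to 83664683, 139 kb) was mixed. There *Ccl3* and *Ccl4* were lower, *Ccl6* and *E230016K23Rik* (tested through its VC counts alone) higher, and *Ccl5* and *Ccl9* did not pass. *Ccl5* (83525778 to 83530518), *Ccl9* (83572919 to 83578636), *Ccl6* (83587882 to 83593087) and *Ccl3* (83647844 to 83649355) lie on the reverse strand, as does *Ccl1* (82176657 to 82305690), and *Ccl2* and *Ccl4* on the forward strand. The deposited entry of *Ccl1* spans far more bases than those of *Ccl2*, *Ccl3* and *Ccl4*, for a gene length of 2369 bases. The 270 kb, the 1220 kb and the FPKM of *Ccl1* rest on this entry. Of 27 genes tested between the groups 9 were higher and 6 lower, beside 21.5% higher and 22.7% lower of all genes tested. The 27 include 9 genes of the *Slfn* family, regulators of lymphocyte and myeloid growth and of antiviral defence. Of these 9 genes, 5 were higher, 2 were lower and 2 did not pass. Reads of these closely related genes may have been shared in counting.

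**Figure D4:**
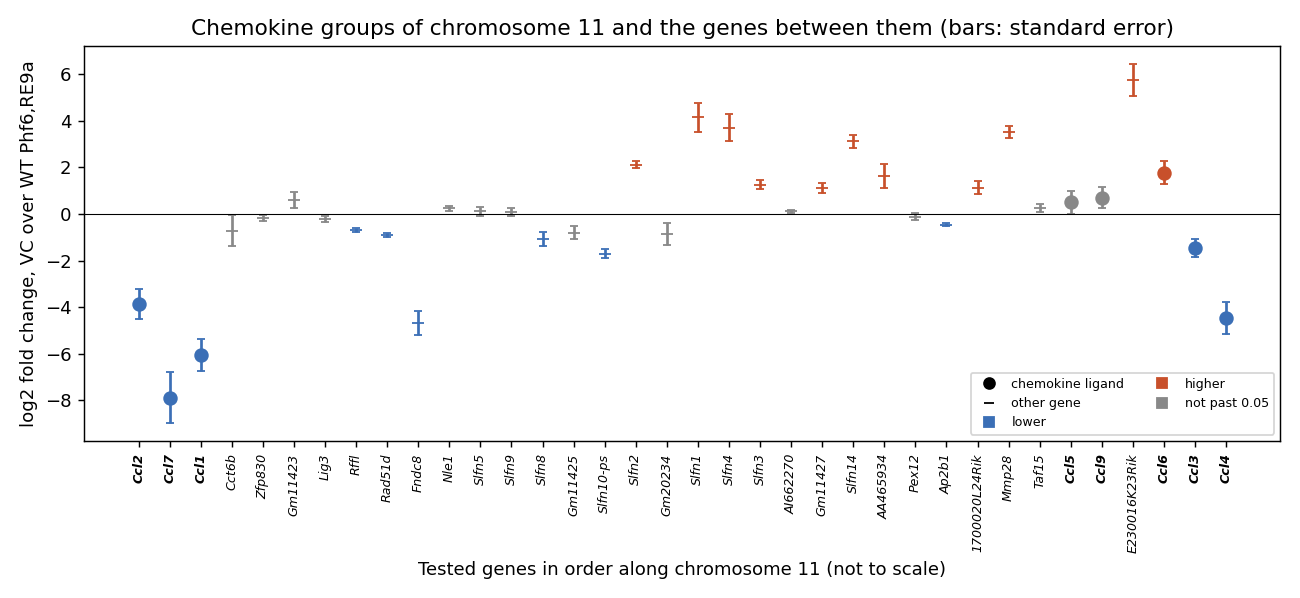
Fitted log2 fold change (*VC* over *WT Phf6,RE9a*, bars standard errors) of the tested genes from *Ccl2* to *Ccl4* in their order along chromosome 11, with chemokine ligands as large points. The 3 ligands at the left are all lower, and the 5 at the right range from a lower *Ccl4* to a higher *Ccl6*. The fitted values of *Ccl7* and *Ccl1* rest on 2 and 1 counts in all *VC Phf6,RE9a* libraries.

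Of 28 other chemokine ligands 6 had enough counts, and 2 were higher, 1 lower and 3 not past the threshold. Of all genes tested 21.5% were higher and 22.7% lower. *Ccl7*, which like *Ccl2* attracts monocytes through CCR2, had 346, 47 and 124 counts in WT cells and 0, 1 and 1 in VC cells. WT cells had 282 times the counts of VC cells after scaling (95% exact interval 77.7 to 2340). It passed the count filter through the WT libraries alone, so its edgeR call (adjusted p = 0.00104) adds little to these counts. *Cxcl12*, the ligand that keeps progenitors in bone marrow through CXCR4, had 12, 4 and 13 counts in WT cells and 49, 67 and 58 in VC cells, and rose by 2.45 ± 0.40 SE on the log2 scale (adjusted p = 0.00235). *Ccl27a* went from at most 27 to at least 80 counts (log2 fold change 1.74, adjusted p = 0.00153), but near-identical copies of this gene make its counts uncertain. Those that did not pass were *Ccl25* (log2 fold change -0.54), *Cxcl16* (-1.09) and *Pf4* (-0.06), the last a platelet factor. Of the 22 ligands with too few counts, 9 had 0 counts in all libraries, and *Ccl8* had the most with at most 22.

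Receptors of the 10 ligands were looked up among 24 chemokine receptors, of which 13 were tested, with 4 higher, 4 lower and 5 not past the threshold. Of all genes tested 44.2% passed. CCR8 is the receptor of CCL1. *Ccr8* had 36, 101 and 16 counts in WT cells and 1, 0 and 0 in VC cells, a ratio of 167 after scaling (95% exact interval 29.5 to 6640), and like *Ccl1* passed the filter through the WT libraries alone. *Ccr2*, the receptor of CCL2 and CCL7, had a log2 fold change of -0.45 ± 0.16 SE (adjusted p = 0.0482) and kept the call in 1 of the 6 fits that left out a library. The CCL6 receptor gene *Ccr1* did not pass (log2 fold change 0.32 ± 0.42 SE, adjusted p = 0.574). *Cxcr2*, through which CXCL2 acts on neutrophils and itself a neutrophil marker, had 15, 14 and 45 counts in WT cells and 384, 271 and 86 in VC cells (log2 fold change 3.21, adjusted p = 0.00516). *Cxcr4*, the CXCL12 receptor gene, was likewise higher, by 2.33 on the log2 scale (adjusted p = 0.00758). The receptor genes of CCL17 and CXCL10, *Ccr4* and *Cxcr3*, were not tested and had at most 7 and 6 counts in any library.

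**Figure D5:**
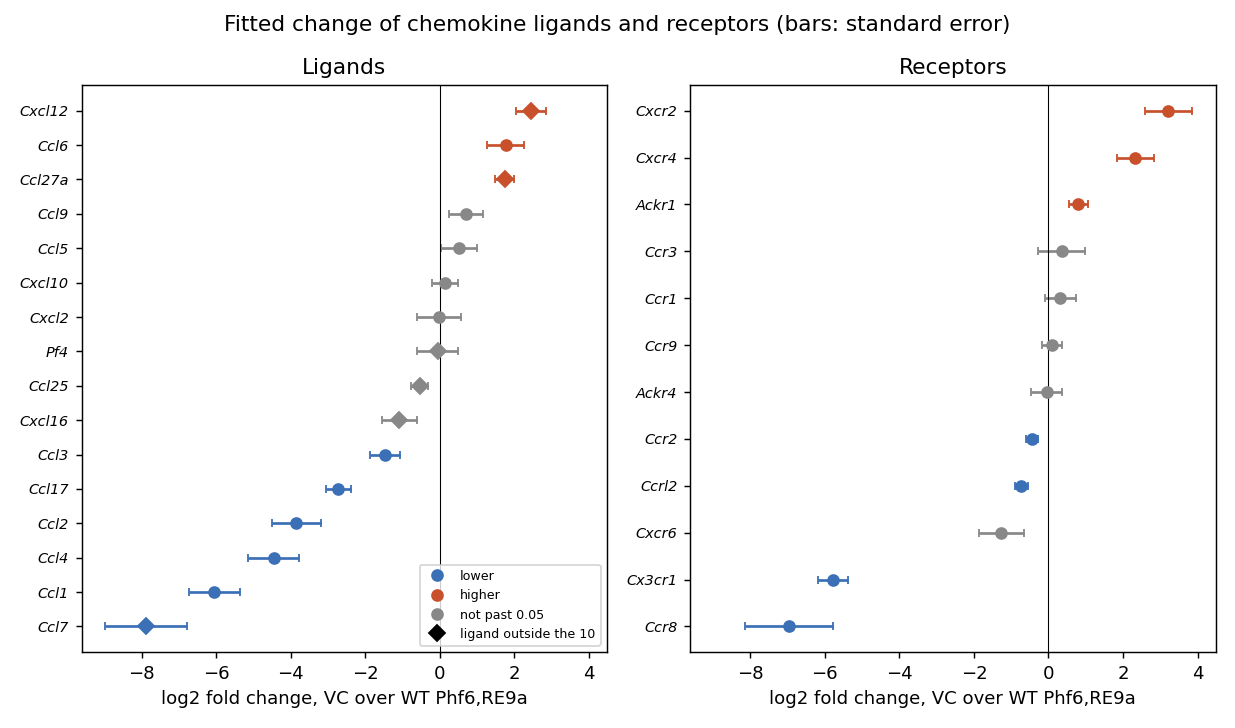
Fitted log2 fold change (*VC* over *WT Phf6,RE9a*, bars standard errors) of the 16 chemokine ligands tested and of 12 receptors, colored by the call. Ligands outside the 10 are diamonds. The ligand values run from a lower *Ccl7* to a higher *Cxcl12*, and those of the receptors from *Ccr8* to *Cxcr2*.

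Cytokines that induce chemokine genes were mostly lower. Of 7 tested, 5 fell and 2 (*Il1b*, *Il1a*) did not pass, where 22.7% of all genes tested were lower. *Lta*, 1 of the 5, had 38, 31 and 40 counts in WT cells and 1, 1 and 0 in VC cells. It passed the count filter through the WT libraries alone, so its call adds little to these counts. *Tnf*, a known inducer of *Ccl2*, had 966, 434 and 663 counts in WT cells and 40, 50 and 17 in VC cells (edgeR adjusted p = 0.000198). *Il13* had a log2 fold change of -4.55 (adjusted p = 9.69e-05), and *Il4*, which with IL-13 induces *Ccl17*, of -0.62 (adjusted p = 0.00998). Of 36 genes of transcription factors and mRNA decay factors that act on chemokine genes, 19 were lower and 5 higher, where 22.7% of all genes tested were lower and 21.5% higher, with a median log2 fold change of -0.60 beside 0.013 over all genes tested. The NF-κB subunit gene *Rel* fell by 3.67 ± 0.32 SE on the log2 scale (adjusted p = 0.000145), and *Nfkbiz*, an NF-κB cofactor, fell by 3.28. *Zfp36*, whose product speeds the decay of cytokine mRNAs, fell by 1.84. *Jun* did not pass (log2 fold change -0.67, adjusted p = 0.169). *Irf4*, *Cebpd*, *Cebpa*, *Irf8* and *Irf7* were the higher ones, by between 1.61 and 2.80.

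Where 21.5% of all genes tested were higher, proteases that cut chemokines were all higher among the 5 tested of 7. They were *Dpp4* (log2 fold change 3.22), which trims CXCL10 and CXCL12, the matrix metalloproteinase genes *Mmp9* (2.90) and *Mmp8* (2.48), and the neutrophil protease genes *Elane* (2.28) and *Ctsg* (1.45). *Mmp8* and *Mmp9* are also on the list of neutrophil markers given above.

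For the 3 ligands with the highest mean FPKM, the genes with the most similar profile were taken by the root mean square distance of centred log2 CPM over the 6 libraries, among 11443 genes. Nearest to *Ccl4* were *Lpcat2* (0.45), *Wls* (0.49) and *Nr4a3* (0.50). *Ccl3* lay nearest to *Gch1* (0.13), *Trp53inp2* (0.16) and *Klf6* (0.16), and *Ccl2* to *Abi3* (0.38), *Mctp1* (0.38) and *Bcar3* (0.45). Distances of *Ccl3* were smaller than those of *Ccl4* and *Ccl2*. They are not scaled by the size of a gene's change, which was smallest for *Ccl3* (log2 fold change -1.47). They thus do not rank how closely each ligand is matched. All of these genes were lower in VC cells (edgeR, adjusted p under 0.05), as the choice by profile entails, with log2 fold changes between -4.89 and -1.35.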

How the data were processed

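RNA from sorted GFP+ AML cells was sequenced in 6 libraries. The authors deposited raw read counts (whole numbers, by Ensembl gene) and FPKM values, which the authors scaled by gene length and by size factors. The deposited coordinates were on GRCm38, with the same start and end as GENCODE M21 for 98.33% of the genes found there, although the submitters' processing notes name mm8 and Bowtie 0.12.0. The aligner settings, counter and strandedness are not given in the sources used here. The 5 columns with the authors' own comparison (group means, log2 fold changes and p-values) were not used.

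In R with edgeR 4.0.16, genes were filtered (filterByExpr, leaving 14169), normalized by TMM and tested by quasi-likelihood F-tests, with Benjamini-Hochberg adjustment and a threshold of 0.05. Fold changes used the default prior count of 0.125 and log2 CPM a prior count of 2. Standard errors (SE) are the log2 fold change over the square root of F. An exact permutation test of 3 against 3 libraries cannot go below p = 0.1 and was not used. Within a group, pairs of libraries differed beyond counting error, with a chi-square per gene of 10.7 to 41.3. The fit was tested on simulated data, where it recovered 51 of 98 genes changed 2-fold and 82 of 98 changed 4-fold. Of 13885 genes tested there, 11 unchanged ones were called. A gene that did not pass can thus still differ 2-fold.

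Ratios with at most 3 counts in a group have exact intervals. The genes named are the 10 ligands, tested or much counted ligands and receptors, the leading genes of each list, genes overlapping a ligand and nearest profiles, of which only those a result turns on are printed. *Ms4a2*, *Zfp36*, *Ctsg*, *Il1a*, *Lta* and the 5 higher regulators were named after their values were seen. The ligands and lists were chosen with earlier results of these data known. Alternatives were DESeq2 1.42.0, RLE size factors, an unfiltered table, a minimum of 10 counts per library, limma 3.58.1 on log2(FPKM + 1) and log2(FPKM + 0.1), prior counts of 0.5 and 2, each library left out, a 2-fold minimum, a threshold of 0.01, and shares of CPM. Protein sequences were not analysed here, and 1 tested receptor gene is counted but not reported here.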

Additional observations from a re-analysis of the deposited data

How the results depend on the processing

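No paired analysis was possible because the groups share no replicate number. No call of the 10 ligands changed under DESeq2, RLE size factors, no count filter, other prior counts or limma on FPKM. With at least 10 counts required in every library, which removes *Ccl4*, *Ccl1*, *Ccl17* and *Ccl5*, 2 of the 10 were lower, 1 other ligand was higher and 0 lower, and 1 receptor was lower. At a threshold of 0.01, 0 of the 10 were higher, 2 receptors were higher and 2 lower, and 1690 genes of all were higher and 2110 lower. A 2-fold minimum left 2 lower receptors, and 1410 higher and 1625 lower genes of all. When single libraries were left out, between 4 and 5 of the 10 were lower and between 0 and 1 higher, and between 1 and 3 of the other ligands were lower. Between 2 and 5 receptors were then higher and between 3 and 4 lower, and of all genes between 2179 and 3132 were higher and between 2511 and 3338 lower.

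Among the genes named, only ones that did not pass the threshold changed sign. Fits without a single library gave log2 fold changes from -0.52 to 0.42 for *Cxcl2*, from -0.23 to 0.40 for *Cxcl10*, from -0.44 to 0.49 for *Pf4*, from -0.07 to 0.69 for *Ccr1*, from -0.32 to 0.82 for *Ccr3*, from -0.08 to 0.24 for *Ccr9*, from -0.36 to 0.17 for *Ackr4* and from -0.08 to 0.73 for *Fn1*, a macrophage list gene. *Pf4* was at 0.01 with limma on log2(FPKM + 1) and at 0.07 on log2(FPKM + 0.1). The cause was not tested. With limma on log2(FPKM + 1) the log2 fold change of *Ccl1* shrank to -0.79. Of 20 shares 14 moved by over 1 SD in CPM. Depth limits *Ccl1*, *Ccl7*, *Ccr8* and *Lta*, at 1 or 2 counts in all VC libraries together.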
